A study of Mus musculus with 35 samples.

Results

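The genes described here are the mouse proteasome subunit genes and the relatives that share their stem names, from Psma to Psmg. They were selected by a rule on gene names, which was set with earlier results of these data known. In the deposited table of RPKM values (read counts scaled to transcript length and library size), 54 gene names begin with one of these stems followed by a digit. Of these, 4 are pseudogenes and 4 more (Psma8, Psmb9, Psmb11 and Psme2b) have no entry in the deposited count table, which left 46 of its 9239 genes. All 46 passed the filter on low counts in every fit, with between 104 counts (Psmg4) and 16939 counts (Psmd2) in any library. They comprise 16 genes of the core, 17 of the cap, 3 assembly chaperones of the cap, 4 assembly chaperones of the core, 4 activators and 1 inhibitor. The remaining member, Psmc3ip, matched by name only: its protein acts in homologous recombination and is not a proteasome subunit.

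The libraries hold poly(A) RNA from N2a Flp-In rtTA cells, a mouse neuroblastoma line. The 2 derived lines each carry a doxycycline-inducible, siRNA-resistant FLAG-Chtop cDNA, which lacks exon 5 in the mEx5 line and holds it in the pEx5 line. The Chtop protein binds RNA and takes part in mRNA export as a partner of TREX. Each line received a non-targeting siRNA pool (control), a Chtop siRNA (knockdown), or the Chtop siRNA with doxycycline (rescue), with the medium changed at 24 h and cells harvested 72 h after transfection. Total lysate, nuclei and cytoplasm were sampled in 2 biological replicates per group, except that the cytoplasmic pEx5 control has 1 library, so that 35 libraries were measured. All groups, controls included, carry the cDNA cassette and rtTA. Only 1 Chtop siRNA product was used, doxycycline was never combined with the control siRNA, controls came from 2 culture dishes and the other conditions from 3, and the sources used here do not say whether a line is a single clone.

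The proteasome is the protease that degrades most ubiquitin-tagged proteins in the cytosol and the nucleus. Its barrel-shaped core is built of stacked rings of alpha subunits (Psma genes) and beta subunits (Psmb genes), and the proteolytic sites lie in Psmb5, Psmb6 and Psmb7. Immune cells and cells under interferon exchange these for Psmb8, Psmb9 and Psmb10. The cap binds, unfolds and feeds in the substrate: its base holds a ring of ATPases (Psmc genes) with Psmd1, Psmd2 and Psmd4, and its lid holds the deubiquitinase Psmd14 among other Psmd subunits. Psme1 to Psme4 encode alternative activators that dock on the core, and Psmf1 encodes an inhibitor of the core. The transcription factor Nfe2l1 raises subunit transcription when proteasome activity falls short, through antioxidant response elements in the promoters of subunit genes.

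The promoter windows of the members were read for that element, because the mRNA of its factor changed with the knockdown. The sequences are from RefSeq on GRCm38.p6, in windows of 300 bases from 250 before to 50 after a transcription start, and 39 of the 46 members had an entry. The motif TGACNNNGC, on either strand, was found in 6 of these 39 genes (15.4%), against 14% of 27025 genes in the table. These 6 sites are printed 5′ to 3′ on the strand that reads the motif, which is in capitals, since they are the only members for which the window holds it.
Psmd9, chr5:123228150-123228176, plus strand: tctagccggTGACCCCGCccacttcca
Psme4, chr11:30771759-30771785, minus strand: ctcttctggTGACGCTGCagccgcagc
Psmb6, chr11:70525339-70525365, plus strand: taaagagagTGACGGAGCgctttacga
Psmd12, chr11:107479278-107479298, minus strand: gggcaaatgTGACACAGCaga
Psmc6, chr14:45329588-45329614, minus strand: agcaatgccTGACTTAGCtactggctg
Psmb5, chr14:54618025-54618051, minus strand: gtgaagttgTGACGTCGCggcgttgcc
The sites of Psmb6 and Psme4 lie next to the start in the RefSeq table, with their centres 5 and 3 bases before it, whereas those of Psmd12 and Psmc6 lie 243 and 223 bases before it and that of Psmb5 lies 43 bases before. The Psmd9 and Psme4 windows belong to RefSeq starts that lie within the gene as GENCODE draws it, so that these sites fall inside the GENCODE gene. A CCAAT box, on either strand, was found in 13 of the 39 genes (33.3%), against 41.1% of genes in the table. A match is a string of letters, and binding was not measured.

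The total count of a library was 20652832 to 36102129 for total lysate, 11681781 to 28705620 for nuclei and 19478702 to 40105458 for cytoplasm. Chtop was at 127 to 143 CPM (counts scaled to library size, with TMM factors) in control total lysate, 19.8 to 34.9 CPM in knockdown and 194 to 296 CPM in rescue, and in nuclei the knockdown was shallower, from 94.9 to 129 CPM down to 58.9 to 73.2 CPM. All 9 neuronal markers and 8 of 11 noradrenergic neuroblastoma markers reached 1 RPKM, with Hand1 and Th among those near 0, while the summed level of the 6 fibroblast markers was 0.930 to 1.15 RPKM and that of the 5 macrophage markers 1.10 to 2.16 RPKM in control total lysate. The nuclear RNAs Malat1, Neat1 and Meg3 summed to 223 to 302 RPKM in control nuclei and 19.8 to 27.2 RPKM in control cytoplasm. The labels name no spike-in, and changes are therefore relative to the other genes of the fraction, and p-values measure the spread between replicates that the labels call biological.

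Proteasome genes were abundant in control total lysate, and core genes stood above cap genes. Median RPKM was 285 over the 16 core genes and 169 over the 17 cap genes, against 26.1 over all genes of the count table. Psma7, an alpha-ring subunit, had the highest level, at 621 ± 28.8 RPKM (SD, n = 4), followed by the beta subunits Psmb3 at 450 ± 34.3 RPKM and Psmb6 at 432 ± 15.8 RPKM. The other 2 catalytic subunits differed in level, with Psmb7 at 406 ± 28.1 RPKM and Psmb5 at 279 ± 10.5 RPKM. Within the alpha ring Psma2 stood lowest, at 99.7 ± 8.25 RPKM, and within the constitutive beta ring Psmb1, at 207 ± 11.5 RPKM. Each assembled ring holds its different subunits in equal number. Protein was not measured, so the order given is one of RNA levels alone.

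Cap genes lay closer together. The ATPases ran from Psmc2 at 101 ± 3.44 RPKM to Psmc1 at 217 ± 14.2 RPKM. The other base subunits ran from Psmd1, a scaffold, at 114 ± 9.11 RPKM to the ubiquitin receptor Psmd4 at 218 ± 7.75 RPKM, and the lid from Psmd11 at 74.5 ± 2.47 RPKM to Psmd14 at 191 ± 13.7 RPKM. Assembly factors had lower levels than most subunits. The core chaperones Psmg1 to Psmg4 had levels of 64.6 (Psmg3) to 99.7 (Psmg4) RPKM, beside 99.7 RPKM for the core gene Psma2 and 80.6 RPKM for Psmb10. The cap chaperones Psmd9, Psmd5 and Psmd10 had 23.9, 30.3 and 69.0 RPKM.

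The activators were unequal. Psme2 and Psme1, which form the interferon-inducible activator together, were at 214 ± 8.26 and 207 ± 11.4 RPKM, the nuclear activator gene Psme3 at 106 ± 6.90 RPKM and Psme4 at 40.8 ± 0.965 RPKM. The inhibitor gene Psmf1 was at 25.5 ± 1.31 RPKM and Psmc3ip at 25.8 ± 3.50 RPKM. The inducible core subunits were low, with Psmb10 at 80.6 ± 9.38 RPKM and Psmb8 at 34.1 ± 1.43 RPKM. Of the genes outside the count table, Psmb9 had 3.70 to 5.84 RPKM, while the testis subunit Psma8 and the thymus subunit Psmb11 were at or near 0. When the 46 genes were ordered by level, the ranges of 38 of the 45 neighbouring pairs overlapped over the 4 libraries.

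**Figure D1:**
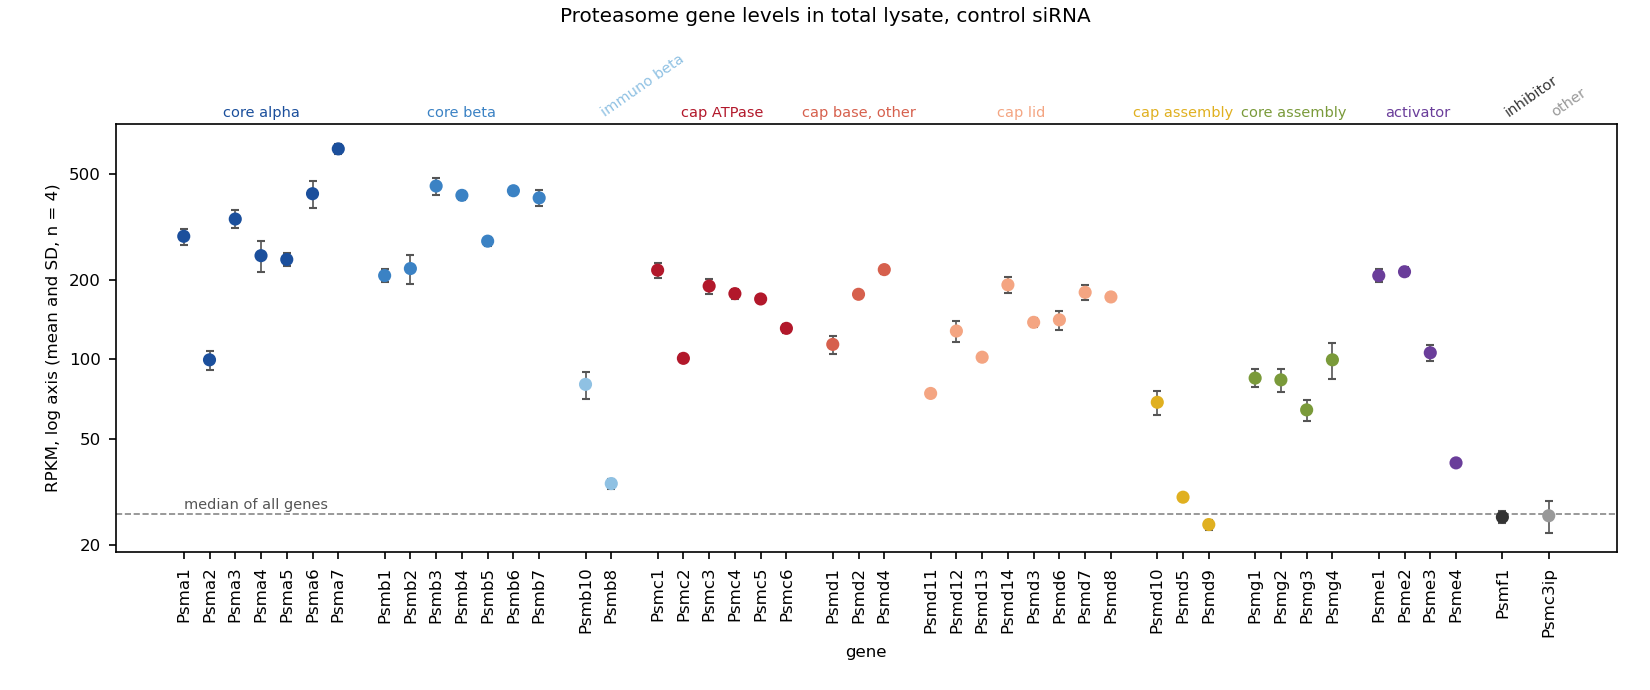
RPKM (log axis) of each of the 46 genes in the 4 control total lysate libraries, as mean with SD, coloured by class, with the median of all genes as a dashed line. Core genes reach 621 RPKM, cap genes lie between 74.5 and 218 RPKM, and Psmb8, the assembly factors and Psmf1 lie toward the dashed line at 26.1 RPKM.

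The balance of core to cap was described by the ratio of their median RPKM in each library. It was 1.70 ± 0.0519 (SD, n = 4; 1.66 to 1.77) in control total lysate, 1.89 ± 0.108 (1.81 to 2.05) after knockdown and 1.86 ± 0.0762 (1.79 to 1.94) in rescue, so that all knockdown and rescue libraries lay above the control libraries. No test was made on this ratio. The ratio of summed counts did not separate in this way, at 0.810 to 0.870 in control and 0.80 to 0.89 after knockdown. In nuclei the RPKM ratio was 1.41 to 1.66 in control, 1.43 to 1.64 after knockdown and 1.41 to 1.72 in rescue. In cytoplasm it was lower in rescue, at 1.66 (1.47 to 1.81), than in control, at 1.85 (1.77 to 1.92), with 1.63 to 1.88 after knockdown. The lowest rescue values, 1.47 and 1.54, were those of the pEx5 line, whose control is 1 library at 1.77. In the mEx5 line the rescue was at 1.81 and 1.81, beside 1.92 and 1.86 in control. The ranges of the 3 conditions overlapped in both of these fractions.

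In control cells proteasome mRNAs were lower in the nuclear than in the cytoplasmic libraries. With edgeR's quasi-likelihood test (adjusted p under 0.05), 39 of the 46 members were lower and 1 was higher, against a background of 36.1% of all genes lower and 33.8% higher (69.9% in either direction). Their median log2 ratio of nuclei to cytoplasm was -0.54, against -0.03 for all genes. The core genes had a median of -0.72, with 15 of 16 lower and 1 higher, and the cap genes a median of -0.43, with 14 of 17 lower and none higher. The difference between core and cap itself was not tested.

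Psmb2, a beta subunit, had the lowest ratio. In control nuclei it was at 52.7 and 47.1 CPM in the mEx5 line and 61.9 and 46.8 CPM in the pEx5 line, against 93.8 and 95.1 CPM and 101 CPM in cytoplasm. Every nuclear library was below every cytoplasmic library (log2 ratio -0.92, SE 0.13, edgeR adjusted p = 1.4e-05). The alpha subunit Psma6 had 112 and 93.5 CPM and 122 and 86.3 CPM in nuclei, against 218 and 173 CPM and 189 CPM in cytoplasm, again without overlap (log2 ratio -0.91, SE 0.18, edgeR adjusted p = 2.9e-04). Psma2 (-0.88) and the cap chaperone Psmd10 (-0.87, SE 0.11, edgeR adjusted p = 4.0e-06) were next. The catalytic subunits were lower by less, at -0.62 for Psmb7, -0.58 for Psmb5 and -0.49 for Psmb6, the last of which turned to 0.05 with the trend on transcript length taken out.

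A few members departed from the others. Psmb8, an interferon-inducible catalytic subunit, was the member with a higher nuclear level: 31.8, 32.4, 30.4 and 31.6 CPM in control nuclei against 26.3, 24.8 and 20.5 CPM in control cytoplasm (log2 ratio 0.45, SE 0.09, edgeR adjusted p = 2.8e-04). These libraries did not overlap either. The 6 members that did not pass the test were the ATPases Psmc4 (-0.20) and Psmc5 (-0.23), the lid subunit Psmd3 (-0.07), the cap chaperones Psmd5 (-0.15) and Psmd9 (-0.23), and the activator Psme4 (-0.10, SE 0.08, edgeR adjusted p = 0.30). All 4 core chaperones, Psmg1 to Psmg4, were lower in nuclei, at -0.36 (Psmg2) to -0.73 (Psmg4), but with the trend on transcript length taken out Psmg2, Psmg3 and Psmg4 turned to 0.14, 0.07 and 0.02. Also lower was the inhibitor gene Psmf1, at -0.74.

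Short transcripts were lower in nuclei across the whole table, and proteasome transcripts are short. Median length, as implied by counts and RPKM, was 0.60 kb for core genes, 1.26 kb for cap genes and 1.90 kb for all genes, and Spearman's rho between length and the log2 ratio was 0.41 across all genes and 0.46 across the members, as a description of genes that share libraries. Of the 2890 genes within the core's length range of 0.41 to 1.46 kb, 54.8% were lower in nuclei with a median of -0.36, and of the 4499 genes within the cap's range of 0.83 to 2.41 kb, 42.1% with a median of -0.14. Both classes lay below these medians, but the genes in each range were not matched to the members' lengths. A difference beyond length is therefore not read from these medians. With each library's trend on length taken out, 27 members were lower and 1 higher (backgrounds 35.1% and 32%), and the medians of core and cap were -0.23 and -0.30, so the order of core and cap reversed. With the culture as a block, 34 members were lower and 1 higher, and the median of all genes was -0.04. The share of all genes called with that block is not given here.

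The same direction was seen in the other conditions. After knockdown 32 members were lower in nuclei and 1 was higher (backgrounds 38.7% and 36.4%, or 75.2% in either direction), with a median of -0.39, and in rescue 26 were lower and 1 higher (37.5% and 35.5%, or 73.0%), with a median of -0.32. Psmb2 remained lowest, at -1.04 after knockdown, and Psmb8 was the 1 higher member in both, at 0.90 and 0.84. With the trend on length taken out these counts fell to 17 lower and 11 higher after knockdown (backgrounds 32.7% and 41.2%) and to 14 lower and 7 higher in rescue (33.1% and 40.0%). In the authors' deposited table, the median log2 ratio of nuclei to cytoplasm over the members is -0.57 in control and -0.44 in knockdown, against -0.03 and -0.04 over all genes.

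**Figure D2:**
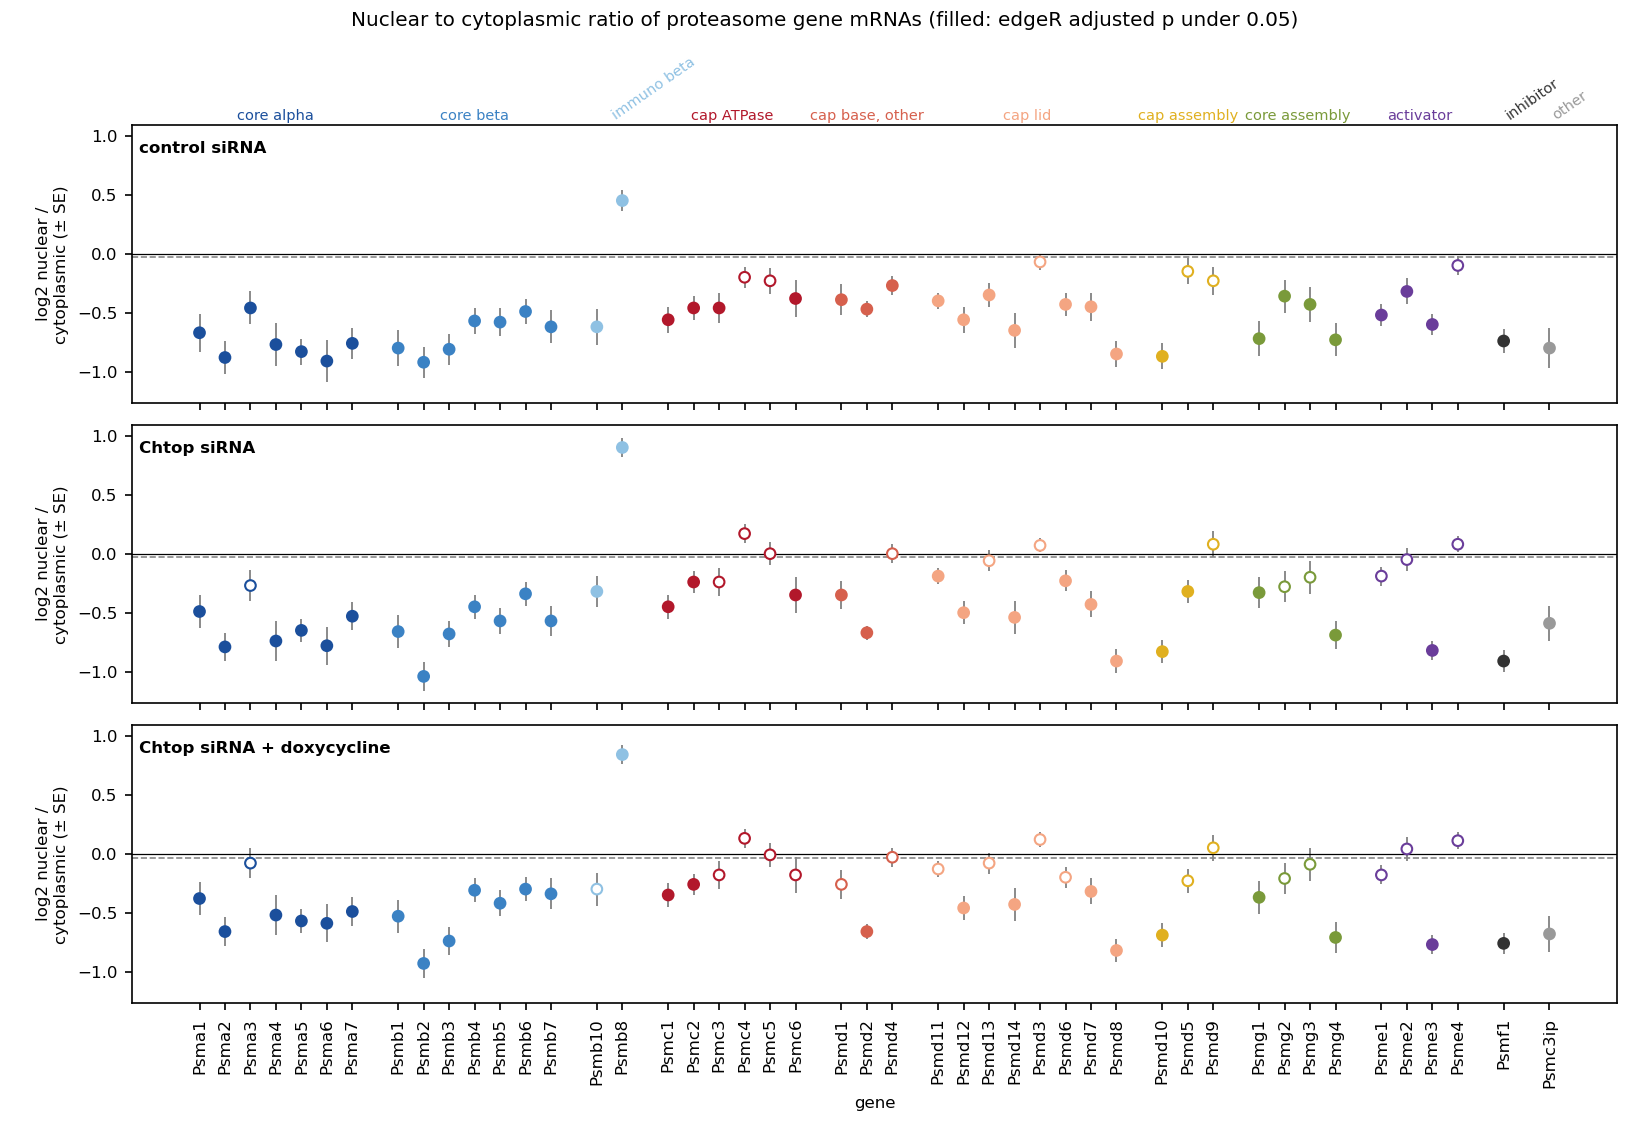
Log2 ratio of nuclei to cytoplasm with SE for each member in control, knockdown and rescue, coloured by class. Filled points passed the test, and the dashed line is the median of all genes. In control 39 filled points lie below 0 and Psmb8 alone lies above it, at 0.45.

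In the fit without the replicate number, knockdown of Chtop changed 7 of the 46 genes in total lysate, and the genes that changed were activators, the inhibitor, 2 cap subunits and Psmc3ip. The edgeR test called 3 members higher and 4 lower of 46 (15.2%), against backgrounds of 21.4% of all genes higher and 22.6% lower, and the median log2 fold change of the members was -0.03. None of the 16 core genes passed in edgeR or in DESeq2, with 1 core gene at an unadjusted p under 0.05 in edgeR. With the replicate number as a block, which pairs these libraries, edgeR called 13 members, among them the core genes Psmb7 and Psmb1 (lower) and Psma4 (higher). Of the 17 cap genes, 2 fell without the block: Psmc2 (-0.22, edgeR adjusted p = 0.032) and the lid subunit Psmd13 (-0.20, edgeR adjusted p = 0.033). In these bulk samples fewer cells of a type and less RNA per cell cannot be told apart. Neuronal markers moved with the knockdown, their summed level being 1951 to 2078 RPKM in control and 1425 to 1674 RPKM after knockdown in total lysate with 9 of 9 markers detected. Of these 5 fell, led by Dpysl3 at -1.48, and 1 rose, Ina at 0.73, while mitochondrial transcripts took 2.45 to 3.51% and 3.38 to 4.84% of counts. Their part in the results on the members was not tested.

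Psme4, the activator gene at chromosome 11, 30771726 to 30880361, fell most. In control total lysate it was at 151 and 155 CPM in the mEx5 line and 148 and 154 CPM in the pEx5 line, and after knockdown at 90.8 and 113 CPM and at 97.2 and 108 CPM. All 4 knockdown libraries were below all 4 controls (log2 fold change -0.59, SE 0.08, edgeR adjusted p = 3.7e-04). Psme3, the activator gene at chromosome 11, 101316213 to 101323537, went the other way, from 213 and 200 CPM and 224 and 192 CPM to 277 and 271 CPM and 294 and 262 CPM, also without overlap (0.40, SE 0.07, edgeR adjusted p = 0.0013). Both calls held when any 1 of the 12 libraries was left out. The Psme1 level, at 156 to 176 CPM in control and 131 to 157 CPM after knockdown, fell by 0.26 (edgeR adjusted p = 0.014), while its partner Psme2 was at -0.08 (edgeR adjusted p = 0.46).

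The inhibitor gene Psmf1 rose, from 43.1, 41.0, 46.8 and 42.5 CPM to 51.3, 47.4, 58.8 and 52.5 CPM (0.25, edgeR adjusted p = 0.021), with every knockdown library above every control. Psmc3ip, the member that is no proteasome gene, rose by 0.45 (edgeR adjusted p = 0.039) from 16.8 to 22.4 CPM to 23.1 to 33.7 CPM. The catalytic subunits gave log2 fold changes of 0.09 for Psmb5, -0.09 for Psmb6 and -0.29 for Psmb7, the last with an edgeR adjusted p of 0.073. For Psmb7 the control libraries were at 302, 265, 308 and 278 CPM. The knockdown libraries were at 280, 207, 261 and 209 CPM, so the groups overlapped. In each pair of the same line and replicate number the knockdown library was lower. The assembly chaperones did not pass: Psmg1 was at 0.24, Psmg4 at 0.21, Psmg2 at 0.15, Psmg3 at 0.05, Psmd5 at 0.06, Psmd9 at -0.03 and Psmd10 at -0.14.

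The replicate number, which pairs the libraries of total lysate and nuclei, changed the counts when it entered as a block. With the block, 6 members were higher and 7 lower in total lysate (backgrounds 31.4% each). With the trend on length also taken out, 5 were higher and 18 lower (30.4% and 34.0%), 9 of the latter in the core. Without the block, the calls of Psmc2 and Psmd13 were lost when any of 6 libraries was left out (both controls and knockdown replicate 2 of each line), that of Psmf1 with any of 4 libraries (control replicate 2 and knockdown replicate 1 of each line) and that of Psme1 without mEx5 control replicate 1. Psmc3ip was lost with any of 7 libraries (both controls, knockdown replicate 1 and both rescues of mEx5, control replicate 2 and knockdown replicate 1 of pEx5). The number of members called fell to 3 without mEx5 control replicate 1, mEx5 control replicate 2 or pEx5 control replicate 2. The share of all genes called in those fits is not given here.

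**Figure D3:**
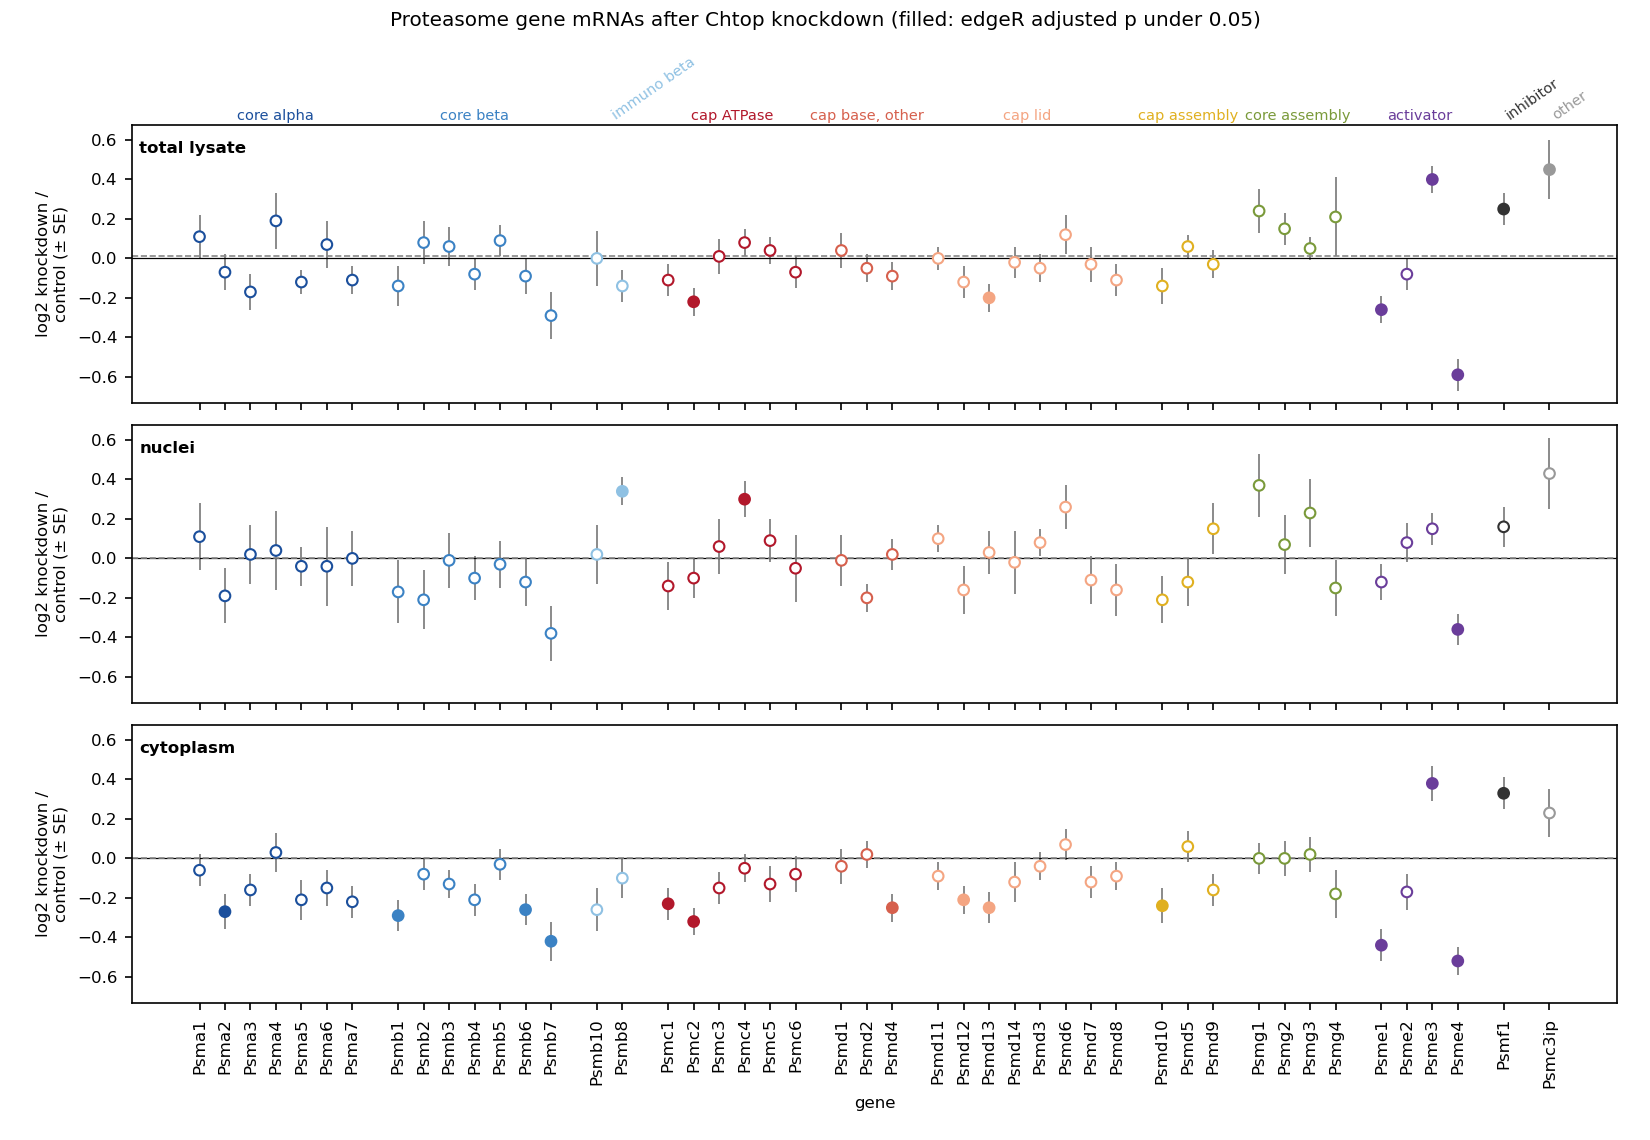
Log2 fold change with SE of each member, knockdown against control, in total lysate, nuclei and cytoplasm, coloured by class. Filled points passed the test, and the dashed line is the median of all genes. Psme4 lies lowest in total lysate and cytoplasm, at -0.59 and -0.52, and Psme3 lies at 0.40 and 0.38 there.

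In nuclei 2 members rose and 1 fell after knockdown, against backgrounds of 15.4% higher and 16% lower, and the median of the members was -0.01. Psme4 fell again, from 197 and 193 CPM and 171 and 193 CPM to 132 and 152 CPM and 149 and 154 CPM, with no overlap (-0.36, SE 0.08, edgeR adjusted p = 0.0086). Psmb8 rose from 31.8, 32.4, 30.4 and 31.6 CPM to 37.5, 40.3, 38.9 and 43.2 CPM (0.34, SE 0.07, edgeR adjusted p = 0.0071). The controls lay within 2 CPM of each other and below all knockdown libraries. The ATPase gene Psmc4 rose by 0.30 (edgeR adjusted p = 0.031). It went from 133, 128, 168 and 142 CPM to 192, 164, 187 and 159 CPM, and the groups overlapped. Psmc4 was higher after knockdown in each pair of the same line and replicate number. Its call was lost with any of 5 libraries left out (both controls and knockdown replicate 1 of mEx5, control replicate 2 and knockdown replicate 1 of pEx5) and with library totals alone as scaling. Psme3, at 0.15, and Psmf1, at 0.16, did not pass in nuclei. With the replicate block in edgeR 6 members were higher and 9 lower (27.8% and 27.6% of all genes in that fit). DESeq2, run without the block, called 2 higher and 3 lower, and its share of all genes is not given here.

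In cytoplasm 2 members rose and 12 of 46 fell by the edgeR test, against backgrounds of 19.8% and 20.9%. Of the 16 core genes 4 fell, a share near the background, and of the 17 cap genes 5. The difference from total lysate was not tested. The median was -0.13 over all members, -0.18 over the core and -0.12 over the cap. Psme4 went from 191 and 197 CPM (mEx5) and 204 CPM (pEx5) to 135 and 142 CPM and to 148 and 130 CPM (-0.52, SE 0.07, edgeR adjusted p = 2.0e-04). Psme1 fell by 0.44 (edgeR adjusted p = 0.0018), from 133 to 154 CPM to 98.2 to 117 CPM. Psmb7, the trypsin-like catalytic subunit, went from 268 and 217 CPM and 231 CPM to 164 and 160 CPM and to 214 and 177 CPM (-0.42, SE 0.10, edgeR adjusted p = 0.0054). All knockdown libraries were below all controls for these 3 genes.

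The other core genes that fell in cytoplasm were Psmb1 (-0.29), Psma2 (-0.27) and the caspase-like catalytic subunit Psmb6 (-0.26), whereas the chymotrypsin-like subunit Psmb5 was at -0.03 (edgeR adjusted p = 0.79). The cap genes that fell were the ATPases Psmc2 (-0.32, edgeR adjusted p = 0.0041) and Psmc1 (-0.23), the base subunit Psmd4 (-0.25) and the lid subunits Psmd13 (-0.25) and Psmd12 (-0.21), and the cap chaperone Psmd10 fell by 0.24. Psme3 rose from 221 and 204 CPM and 233 CPM to 314 and 272 CPM and to 314 and 265 CPM (0.38, edgeR adjusted p = 0.0045). Psmf1 rose from 37.3 and 33.3 CPM and 42.6 CPM to 48.6 and 45.1 CPM and to 52.0 and 50.7 CPM (0.33, edgeR adjusted p = 0.0070). None of the core chaperones passed in edgeR in any fraction, with Psmg1 at an unadjusted p of 0.052 in total lysate and 0.047 in nuclei.

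The cytoplasmic count rested on few libraries. It was 8 without mEx5 control replicate 1 and 7 without mEx5 knockdown replicate 1, against 14 with all. With library totals as scaling or with all 35 libraries in 1 fit it was 8. Shares of all genes called in these fits are not given, so nothing particular to the members is read from the changes. The calls of Psme4, Psme1, Psmb7, Psmc2, Psme3 and Psmf1 held in all 10 fits that left out 1 library. Psmb6 was lost without mEx5 knockdown replicate 1, and Psmd10 in 8 of the 10 fits, all but those without mEx5 control replicate 2 and pEx5 knockdown replicate 2. Neuronal markers summed to 1850 to 1972 RPKM in control cytoplasm and 1321 to 1483 RPKM after knockdown, with 6 of 9 lower and 1, Ina, higher at 0.82, and mitochondrial transcripts took 1.90 to 2.09% and 2.27 to 3.31% of counts. Their part was not tested.

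**Figure D4:**
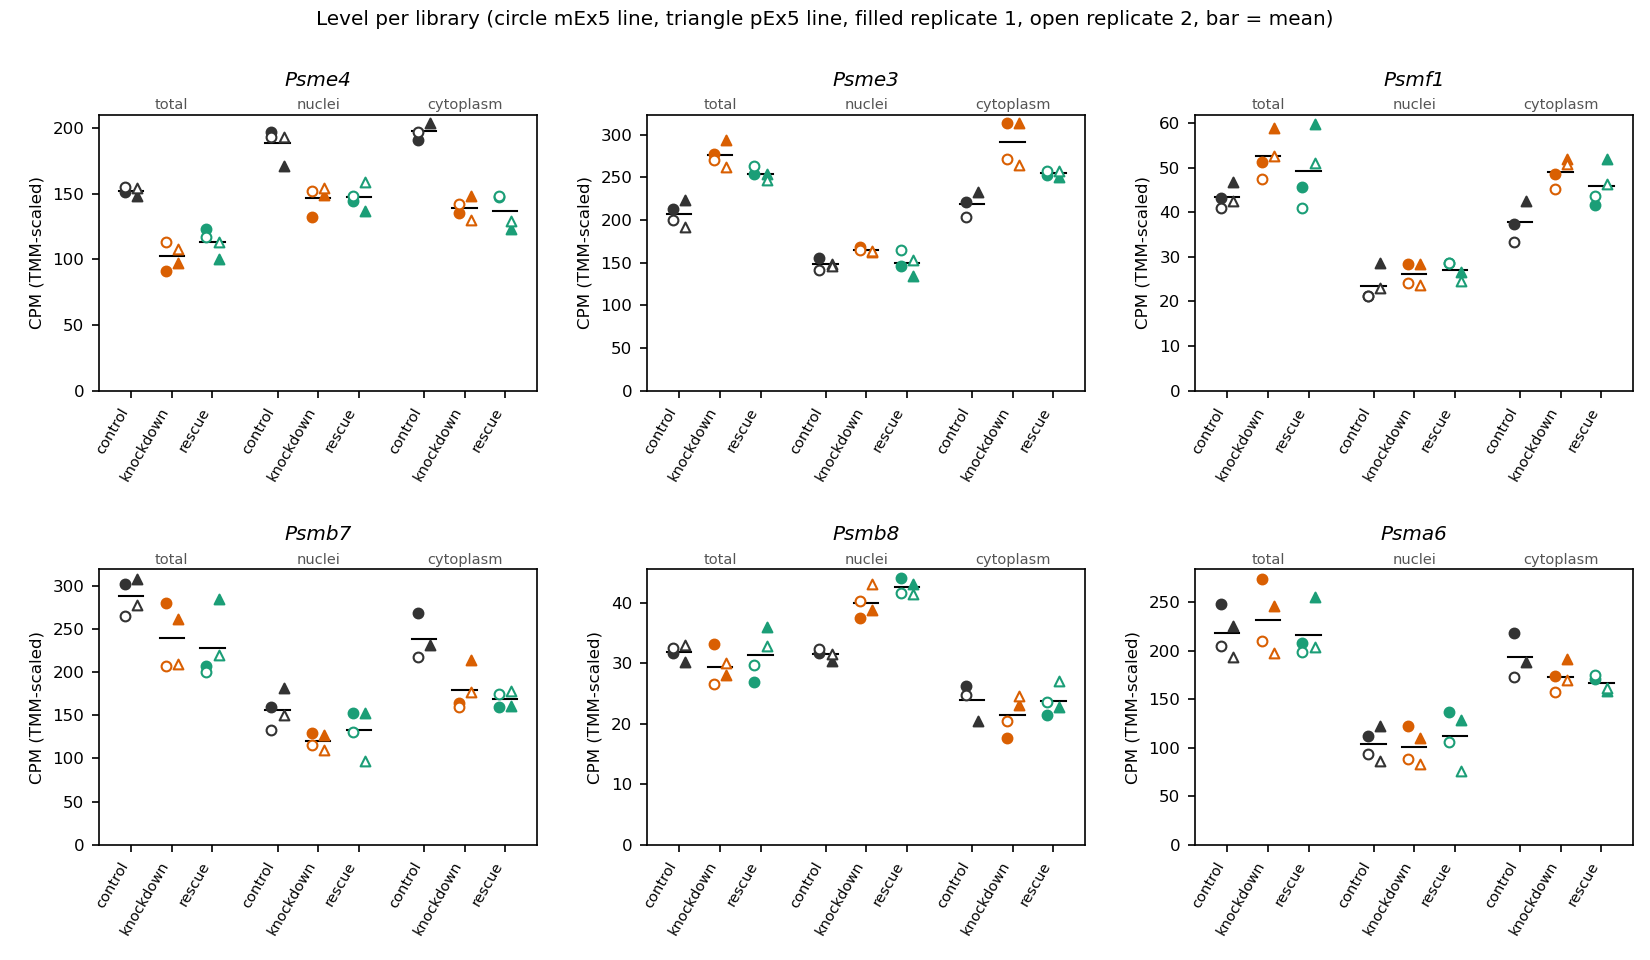
TMM-scaled CPM of Psme4, Psme3, Psmf1, Psmb7, Psmb8 and Psma6 in every library, by fraction and condition. Circles are the mEx5 line and triangles the pEx5 line, filled symbols are replicate 1 and open symbols replicate 2, and bars are means. Control Psme4 in total lysate lies at 148 to 155 CPM, above the 90.8 to 113 CPM of the knockdown.

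Some members share exons with a gene on the other strand, and the sources used here do not give the strand used in counting. Among the genes named above these are Psmb7 with Nek6 (405 bases shared), Psmd13 with Sirt3 (342 bases), Psmc3ip with Mlx (385 bases) and Psme1 with Emc9 (14 bases). If strand was not used, reads within the shared bases of such pairs cannot be told apart. The partner's mean level over the libraries was below that of the member in each case. It was 3.35 RPKM for Nek6 and 250 RPKM for Psmb7 in the first pair and 21.3 and 22.9 RPKM for Mlx and Psmc3ip. Pseudogenes named after Psmb5, Psmb6 and Psmb7 are listed in the RPKM table, and how their reads were shared out is not stated.

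Both lines showed the changes of Psme4 and Psme3 in total lysate. In that fraction Psme4 was at -0.60 in mEx5 and at -0.57 in pEx5 cells and Psme3 at 0.39 and 0.40, and these were the 2 members called in each line (backgrounds 11% higher and 12.7% lower for mEx5, 11.9% and 13.7% for pEx5). In cytoplasm 2 members were higher and 13 lower in the mEx5 line (15% and 16.5%), and 0 higher and 1 lower in the pEx5 line (6.02% and 8.34%), where the control is a single library. The difference between the lines was tested itself, and edgeR and DESeq2 called 0 of the 46 members in any fraction, with 0 members in total lysate, 0 in nuclei and 2 in cytoplasm at an unadjusted p under 0.05 in edgeR (background 0%). In nuclei 1 member was higher and 1 lower in the mEx5 line (5.87% and 5.92%) and 1 higher and 0 lower in the pEx5 line (9.64% and 10.1%). There 35 members had values above 0 in mEx5 (median 0.11, all genes 0.01) while 37 had values below 0 in pEx5 (median -0.14, all genes -0.00). Members of a library vary together, so these numbers do not count separate observations.

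The ratio of nuclei to cytoplasm shifted for 1 member. Psmb8 moved further toward nuclei after knockdown, from 0.45 in control to 0.90, a shift of 0.45 (SE 0.12, edgeR adjusted p = 0.034), against backgrounds of 3.83% of genes shifted up and 1.31% down (5.14% in either direction). The nuclear libraries rose in both lines, whereas in cytoplasm the mEx5 line went from 26.3 and 24.8 CPM to 17.6 and 20.4 CPM and the pEx5 line from 20.5 CPM to 23.2 and 24.6 CPM. The median shift of the members was 0.14, and 0.01 over all genes. With library totals as scaling the medians were 0.04 and -0.09, and the call of Psmb8 was lost there, with the culture as a block (median shift 0.07 over the members, backgrounds 3.20% and 0.584%), and without any of 12 of the 22 libraries. Those 12 were both replicates of the mEx5 controls in both fractions, of the nuclear mEx5 knockdown and of the nuclear pEx5 control, cytoplasmic knockdown replicate 1 of each line, nuclear mEx5 rescue replicate 2 and nuclear pEx5 knockdown replicate 2. Psmc4, at 0.36 (edgeR adjusted p = 0.081), was next in the order of p and did not pass.

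No member passed the test between rescue and knockdown. This comparison gave 0 of 46 members called in total lysate, nuclei or cytoplasm by edgeR and by DESeq2, and 3, 0 and 1 members had an unadjusted p under 0.05 in edgeR (backgrounds 0.0217%, 0.0108% and 0.0433% of genes called in either direction). Psme4 in total lysate was at 123 and 117 CPM in the mEx5 rescue and 99.8 and 113 CPM in the pEx5 rescue, between the knockdown and control levels in mEx5 (rescue minus knockdown 0.14, SE 0.08 over both lines). In cytoplasm it was at 147 and 148 CPM and at 123 and 129 CPM, a difference of -0.03 (SE 0.06) from the knockdown. Psme3 was lower in rescue than in knockdown by 0.12 (SE 0.07) in total lysate without passing. With the replicate block 1 member was called in total lysate, the core chaperone gene Psmg3, lower in rescue (backgrounds 0.964% higher and 0.877% lower). Without pEx5 cytoplasmic knockdown replicate 2, Psme3 (lower) and Psme1 (higher) were called in cytoplasm.

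The lines carry different isoforms, and the difference of their rescues was tested too. No member was called by edgeR or DESeq2 in any fraction, and 0 of 46 had an unadjusted p under 0.05 in edgeR in each of the 3 (background 0%). In total lysate 44 of 46 members had a positive difference (pEx5 minus mEx5, median 0.20), while in nuclei and cytoplasm the medians were -0.06 and -0.07. Over all genes the medians were -0.00 in total lysate, -0.00 in nuclei and 0.00 in cytoplasm. The members of a library vary together, as the replicate gaps below show, so the 44 members are not separate observations. The shift of the ratio of nuclei to cytoplasm in rescue against knockdown called 0 members by edgeR and by DESeq2, with 0 at an unadjusted p under 0.05 in edgeR (background 0.0216%).

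The rescue libraries were also set against control. This comparison shares its control libraries with the knockdown comparison. In total lysate 1 member was higher and 8 were lower (backgrounds 18.3% and 19%): Psme3 at 0.28, and Psme4 (-0.45), Psmb7 (-0.37), Psmd13 (-0.34), Psmc2 (-0.30), Psma3, Psme1, Psma7 and Psmg3. In nuclei Psmb8 was higher (0.43) and Psme4 lower (-0.36), against backgrounds of 11.5% and 12.2%. In cytoplasm 1 member was higher, Psmf1 at 0.23, and 15 were lower (17.2% and 18.4%), led by Psme4 (-0.55), Psmb7 (-0.50), the core chaperone Psmg4 (-0.38) and Psmb10 (-0.38). With the replicate block the counts were 3 higher and 20 lower in total lysate (29.6% and 28.3%) and 9 higher and 6 lower in nuclei (24.4% and 25.5%). Leaving out 1 library or fitting all 35 moved these counts too, and the shares of all genes in those fits are not given here. In total lysate 4 members were called without mEx5 control replicate 1 and 5 without mEx5 rescue replicate 1 or pEx5 rescue replicate 2, and the call of Psmb7 was lost with any of 7 libraries of control and rescue (all but pEx5 rescue replicate 1). In nuclei Psme4 was lost without pEx5 control replicate 2, and 4 members were called without pEx5 rescue replicate 1. In cytoplasm 7 were called without mEx5 control replicate 1, 5 without mEx5 rescue replicate 1, 6 without pEx5 rescue replicate 1 and 4 with all 35 libraries in 1 fit, and Psmf1, Psmg4 and Psmb10 were lost in 6, 4 and 3 of the 10 fits, each time including that without mEx5 rescue replicate 1.

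The spread between replicates ran through the whole family. Of the 46 members, 36 to 44 were higher in replicate 1 than in replicate 2 in 5 of the 6 total lysate groups, and 26 in the mEx5 rescue, with median gaps of 0.03 to 0.25 on the log2(CPM + 1) scale. In the 6 nuclear groups 37 to 44 members were higher in replicate 1, with median gaps of 0.13 to 0.40, while all genes had median gaps from -0.02 to 0.01 in these 12 groups. The gap was widest in the nuclear pEx5 rescue, at 0.55 for core and 0.34 for cap genes. Psma6 there was at 129 and 75.7 CPM. In the 5 cytoplasmic groups with 2 replicates, 12 to 41 members were higher in replicate 1, with median gaps of -0.07 to 0.16. What the replicates differ in was not tested.

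**Figure D5:**
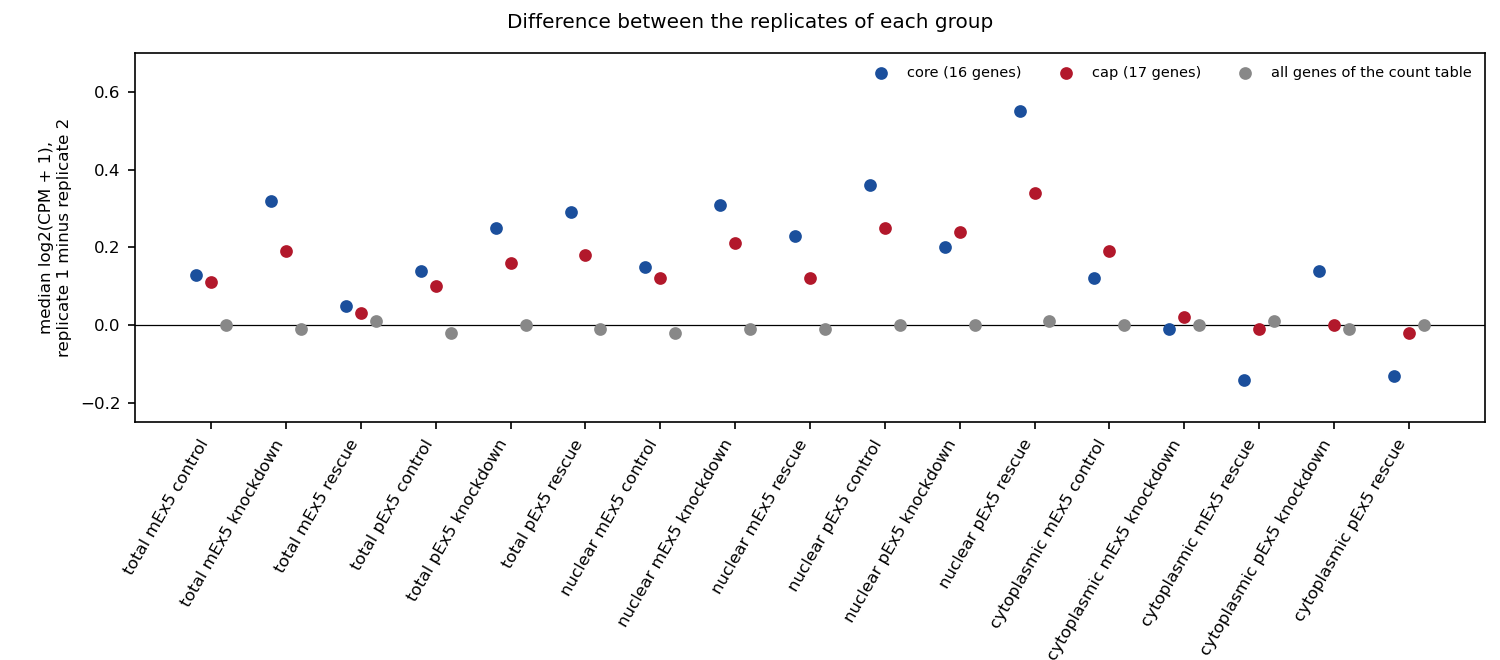
Median difference in log2(CPM + 1) between replicate 1 and replicate 2 in each group, for core genes, cap genes and all genes. Core and cap lie above 0 in all total lysate and nuclear groups, up to 0.55 for the core in the nuclear pEx5 rescue, while all genes stay near 0.

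The regulators and partners of the proteasome gave further values. Nfe2l1, whose element was searched for above, was at 370 and 394 CPM and at 434 and 455 CPM in control total lysate and at 295 and 307 CPM and at 325 and 361 CPM after knockdown, with no overlap (-0.38, SE 0.06, edgeR adjusted p = 0.0011). It also fell by 0.48 in nuclei and by 0.29 in cytoplasm. Of the 6 members with the motif in the window, Psme4 fell in all 3 fractions, Psmb6 and Psmd12 fell in cytoplasm, and Psmd9, Psmc6 and Psmb5 did not pass in any of the 3. Over all 46 members 12 fell in cytoplasm, and over all genes 20.9% did, so that these 6 genes are described and not set apart. Of the 11 measured genes of the list on this compensatory response, 1 rose and 4 fell in total lysate, where 21.4% of all genes were higher and 22.6% lower, among them the related factor gene Nfe2l2 (-0.78) and the small Maf gene Maff (-0.83).

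Genes of ubiquitin and its activation fell in part, with 0 of 6 higher and 2 lower in total lysate, among them the E1 enzyme gene Uba1 at -0.31. The counts of this list and of those that follow stand beside the same backgrounds of 21.4% and 22.6%, and nothing particular to a list is read from them. Of 14 shuttle factors and deubiquitinases that bind the proteasome, 4 rose and 3 fell, including the shuttle Ubqln2 (0.41) and the deubiquitinase Uchl5 (-0.33). Among 6 further subunit and assembly genes 0 rose and 1 fell in total lysate, the adaptor gene Ecpas (-0.25), and 2 fell in cytoplasm, the core maturation factor Pomp (-0.26) and the nuclear import factor Akirin2 (-0.23).

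As other large complexes, the COP9 signalosome and eIF3, which are related to the lid, and the CCT chaperonin were described in the same way. In total lysate 1 rose and 2 fell of 10 COP9 genes, 1 rose and 3 fell of 14 eIF3 genes, and 0 rose and 5 fell of 8 CCT genes, led by Cct4 at -0.59. In control nuclei against cytoplasm, 8 of 10 COP9 genes, 14 of 14 eIF3 genes and 8 of 8 CCT genes were lower, with medians of -0.56, -0.69 and -0.64, beside the -0.54 of the members and 36.1% of all genes lower. Most genes of all 3 complexes were thus lower in nuclei too.

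In the authors' deposited table, 9 of the 46 members (19.6%) are marked as overlapping Chtop iCLIP, the mapping of Chtop binding sites on RNA, against 48.5% of all genes. In the core 1 of 16 is marked, Psma3, and in the cap 6 of 17: Psmc3, Psmc6, Psmd1, Psmd3, Psmd4 and Psmd11. The others are Psme4 and Psmg2. Of these 9, Psme4 fell in all 3 fractions after knockdown and Psmd4 fell in cytoplasm, and the other 7 did not pass in any. The marks were not set against transcript length.

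The 5 genes outside the family whose level followed the members' mean most closely over the 12 total lysate libraries were Gm10275 and Gm13370 (Spearman's rho 0.98 each), Pebp1 (0.96), U2af1l4 (0.96) and Rpsa (0.95). These libraries share the replicate gap described above.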

How the data were processed

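The 46 members and the lists of related genes were chosen with earlier results of these data known. Counts per gene for 9239 genes, and RPKM for 54393 genes, were used as deposited; 1 RPKM column without a sample in the labels was left out. The submitters' processing notes name the mm10 genome, Salmon 0.14.1 and DESeq2 without a version; their roles are not stated there. The log2 ratios of nuclei to cytoplasm and the iCLIP mark (another kind of value, true or false) come from the authors' deposited table.

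Counts were tested with edgeR 4.0.16 in R 4.3.3 (quasi-likelihood, TMM scaling, filter by group), with 1 fit per fraction and 1 over nuclei and cytoplasm, all groups sharing 1 estimate of the spread. P-values were adjusted by Benjamini-Hochberg over all genes of the fit, and calls are at 0.05. SE is the fold change over the root of the F statistic. CPM shown are TMM-scaled over all 35 libraries. The filter removed 2, 0, 1 and 0 genes from the total, nuclear, cytoplasmic and joint fits. Scripts were tested on simulated data.

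Alternatives were DESeq2 1.42.0, edgeR with its size factors or with library totals, blocks for the replicate number or for the culture, removal of a loess trend on transcript length (span 0.5), an unfiltered table, 1 fit of all 35 libraries, and leaving out each library. Same-numbered libraries deviated together in total lysate (15 pairs, r 0.349 to 0.793) and nuclei (15 pairs, 0.523 to 0.719), which pairs them there. Nuclei and cytoplasm of 1 number come from 1 culture by the protocol.

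Genes named were the catalytic, inducible, activator, inhibitor and chaperone genes, Psmc3ip, Nfe2l1 and Chtop in any case; up to 4 called members per direction and comparison with a mean of at least 5 CPM; the highest and lowest member of each class by RPKM; up to 2 called genes per related list; and the 5 most alike genes. A few more, such as the remaining called or marked members, were named after their values were seen. Some genes that the rule names are not reported here.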

Additional observations from a re-analysis of the deposited data

Results flagged for a closer look

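The shift of Psmb8 between nuclei and cytoplasm with knockdown stood out at 0.45 on the log2 scale, since the change differed between the fractions by a test of the difference itself (SE 0.12, edgeR adjusted p = 0.034). Nuclei and cytoplasm of 1 number come from 1 culture, and with the culture as a block the shift was 0.47 without passing (edgeR adjusted p = 0.061). It also did not pass with library totals as scaling (0.35, edgeR adjusted p = 0.080) or without any of 12 of the 22 libraries. In nuclei Psmb8 rose by 0.34, and in cytoplasm it was at -0.10 without passing. In cytoplasm the values were -0.43 in the mEx5 line (edgeR adjusted p = 0.024) and 0.22 in the pEx5 line, whose control is 1 library (edgeR adjusted p = 0.37), and the difference between the lines, 0.65 (SE 0.20), did not pass (edgeR adjusted p = 1.00).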

How the results depend on the processing

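Counts of called members moved with the replicate block and the trend on transcript length in total lysate and nuclei, and with single libraries and the set of libraries fitted in cytoplasm. The cause of each change was not tested. The share of all genes called moved with the setting too, as given above for total lysate and nuclei with the replicate block. The counts below are given without these shares, and nothing particular to the members is read from them. With the replicate block, the counts were 13 for knockdown against control, 1 for rescue against knockdown and 23 for rescue against control (all in total lysate), 15 and 15 for knockdown and rescue against control in nuclei, and 2 for the shift of the nuclear to cytoplasmic ratio with knockdown. With the length trend taken out, knockdown and rescue against control gave 14 and 16 (total lysate) or 9 and 8 (nuclei), and the shift gave 4. With both together, total lysate gave 23, 1 and 27, nuclei gave 17 and 17, and the shift gave 10. DESeq2 gave 5 and 5 for knockdown and rescue against control in nuclei and 2 for the shift. All 35 libraries in 1 fit gave 8 and 5 in nuclei, and 8 and 4 in cytoplasm. Library totals alone gave 8 for knockdown in cytoplasm and 0 for the shift, and the culture as a block gave 0 for the shift. In cytoplasm the same-numbered libraries deviated together unevenly (10 pairs, all positive, r 0.0596 to 0.648). The lowest values were below the minimum of 0.1 set for pairing, although nuclei and cytoplasm of 1 number come from 1 culture. The block there gave 18 members for knockdown against control, against 14 without it.

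With a single library left out, the counts ranged as follows. In total lysate they were 3 to 7 (knockdown), 4 to 10 (rescue against control) and 0 to 0 (rescue against knockdown, and the rescue difference between lines). In nuclei they were 2 to 4, 1 to 4 and 0 to 0 in the same order. In cytoplasm they were 7 to 16, 5 to 20 and 0 to 2, and 0 to 0 for the difference between lines. The ratio of nuclei to cytoplasm in control gave 35 to 43, its shift with knockdown 0 to 1, and its shift with rescue 0 to 0. Cytoplasmic contrasts with control could not be computed without the single pEx5 control library.

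For single members, 9 of 6768 values under the alternatives changed sign against a called value. All 9 were log2 ratios of nuclei to cytoplasm in control with the length trend taken out, alone and then with the replicate block: Psmb6 at 0.05 and 0.05, Psme2 at 0.16 and 0.14, Psmg2 at 0.14 and 0.15, Psmg3 at 0.07 and 0.08, and Psmg4 at 0.02 without the block. A further 149 values lost their call and 101 gained one. The other 6509 did none of these. Changes of sign in values without a call were not counted apart and can be among them. With 2 libraries per group, and 1 in the cytoplasmic pEx5 control, the spread is estimated over all groups of a fit and the lone control is assumed to vary like the others.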

Other observations

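In control, 43 of the 46 members (93.5%) had a higher mean CPM in total lysate than in either fraction, among them all 16 core genes and 16 of 17 cap genes, against 32.2% of all genes. Psma6, for example, was at 194 to 248 CPM in total lysate, 86.3 to 122 CPM in nuclei and 173 to 218 CPM in cytoplasm. Total lysate came from cells set aside before fractionation, and CPM is relative to the RNA of each library.

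Psmb9, an inducible catalytic subunit that has no entry in the count table, was listed at 2.29 to 2.92 RPKM in control nuclei and 3.99 to 5.37 RPKM in control cytoplasm. Psmb8, its neighbour in the major histocompatibility region, was higher in nuclei in the test above.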
